A study of Drosophila melanogaster with 34 samples.

Results

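The RNA of nuclei pulled down through a tag driven in mushroom body (MB) neurons was compared between flies with and without rest. The former had rested for 5 min after 5 min of red light, and the latter were frozen right after the same light. The libraries also held much RNA of photoreceptor and fat body genes, so a change cannot be placed in MB neurons. All genes that passed a filter on low counts are described, 11670 of the 17559 genes in the deposited count table. The comparison used 6 of the 34 samples of the series, 3 libraries after 5 min of rest and 3 libraries without rest. All flies were labelled as strain CS10, the wild type to which the lines had been outcrossed, expressed FLAG-KASH, a tag of the nuclear envelope, and CsChrimson, a cation channel opened by red light, under the MB driver *MBp-LexA*, and were fed all-*trans*-retinal, the cofactor of the channel. Nuclei of fly heads were fixed and pulled down with an antibody against FLAG, and their polyadenylated RNA was collected after it had been fragmented, so the reads lie toward the 3′ ends of genes. Age and sex were not given in the sources used here. The labels number the replicates but do not say that they came from separate groups of flies, so the p-values measure only the spread between these samples, which may be technical. Totals were 15939683 to 18157351 counts after 5 min of rest and 14912290 to 18809246 counts without rest.

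The MB is a center of olfactory memory in the fly brain. When neurons fire, calcium entry starts the transcription of activity-dependent genes, and nuclear RNA follows such changes sooner than the RNA of the whole cell. The heat shock genes are another textbook case of fast induction in *Drosophila*. Their polymerases pause downstream of the start site and are released when the heat shock factor Hsf binds inverted repeats of a short motif, the heat shock element. The proteins made are chaperones, which hold or refold other proteins.

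After 5 min of rest, 273 genes were higher (2.34% of the tested genes) and 93 were lower (0.797%) than without rest, called by the quasi-likelihood test of edgeR with an adjusted p below 0.05. Heat shock genes and chaperones led the increases. They made up 11 of the 20 largest fold changes among the genes called higher, and 26 of their 42 tested members rose while none fell. The deepest decreases were those of genes known from the male reproductive tract and the gut, which were nearly undetected after 5 min of rest. The median log2 fold change was 0.65 for the genes called higher, -1.76 for those called lower and -0.00 for all tested genes. Of the genes called higher, 64 rose at least 2-fold and 108 less than 1.5-fold. Of the genes called lower, 40 had a mean below 1 log2 CPM (log2 of the counts of a gene scaled to a common library size) and a median log2 fold change of -5.41, and the other 53 had a median of -0.51. This mean spans both groups, so a deep decrease itself lowers it. The 40 genes summed to 87.2 to 113 CPM without rest and 3.76 to 5.73 CPM after 5 min of rest. The libraries of the groups did not overlap for any of the 366 called genes, and this was so for 20.0% of all tested genes.

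**Figure D1:**
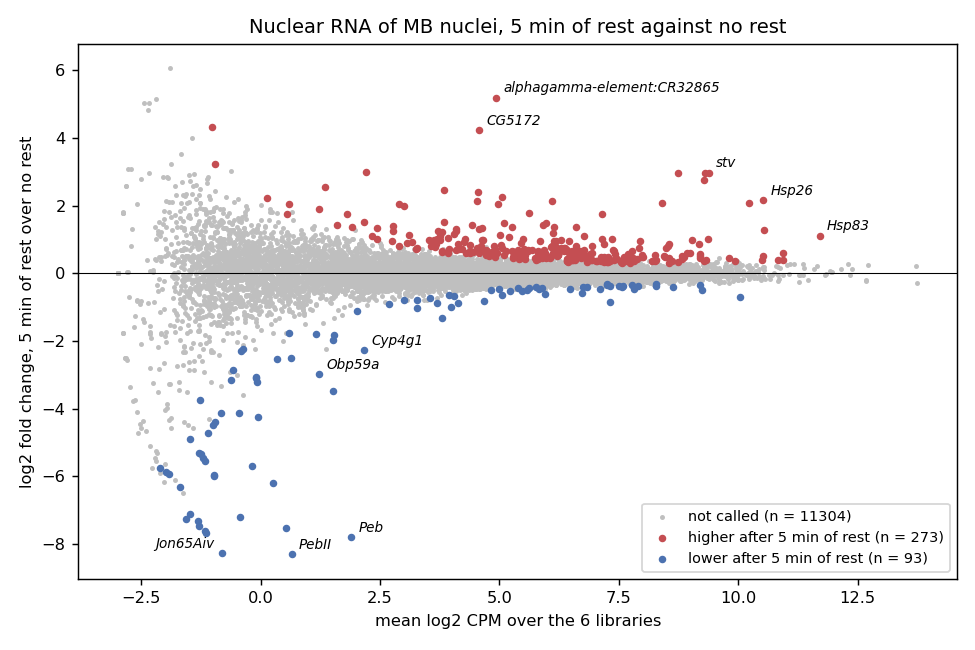
Log2 fold change of each tested gene, 5 min of rest over no rest, against its mean log2 CPM over the 6 libraries. Red points are the 273 genes called higher, blue points the 93 called lower and grey points the genes not called. Heat shock genes such as *stv* and *Hsp26* lie high at large CPM. The strongest decreases lie at low mean CPM, which their low level after rest itself pulls down.

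All 9 tested genes of the list of 70 kDa heat shock genes, the *Hsp70* copies, *Hsp68* and a pair of noncoding RNAs, rose, with a median log2 fold change of 2.14. The largest increase among all called genes was that of *alphagamma-element:CR32865* (chromosome 3R, from 12475336 to 12478267 of dm6), a noncoding RNA between *Hsp70* copies. It had 212, 165 and 170.3 normalized CPM after 5 min of rest, against 5.47, 5.53 and 4.03 without rest (log2 fold change 5.19, standard error 0.15, adjusted p = 7.91e-21). Every library after rest was far above every library without rest. *Hsp68*, a relative of Hsp70, had 1820, 1751 and 1761 normalized CPM after 5 min of rest, against 246, 250.3 and 192 without rest (log2 fold change 2.95, standard error 0.10, adjusted p = 3.83e-19). *Hsp68* shares exons with *CG6000* and *lncRNA:CR44097*, and reads of overlapping genes cannot be told apart, because the strand setting of the count was not given in the sources used here. *Hsp70Bc* had 1786, 1532 and 1544 normalized CPM after 5 min of rest, against 271, 245 and 201 without rest (log2 fold change 2.76, standard error 0.10, adjusted p = 2.2e-18). The other *Hsp70* copies rose by log2 fold changes between 1.74 for *Hsp70Bb* and 2.41 for *Hsp70Bbb*. These copies are nearly identical and reads of low mapping quality had been removed, so the level of each copy is uncertain. The plasmid with the MB driver also holds a minimal promoter of *hsp70Bb*, whose part in these counts was not tested. *Hsromega*, a noncoding RNA that organizes nuclear stress bodies, had 2501, 2414 and 2434 normalized CPM after 5 min of rest, against 568, 564 and 615 without rest (log2 fold change 2.07, standard error 0.08, adjusted p = 3.72e-18). Its groups were separated by a wide gap.

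The promoters of some heat shock genes are printed because they carry the letters that Hsf is known to bind. That of *CG5172*, which is in none of the heat shock or chaperone lists, is printed beside them for its large increase. Each sequence is the 250 bases before the annotated gene start in the RefSeq genome of the dm6 assembly, 5′ to 3′ on the strand of the gene. Capitals mark matches to GAANNTTC or TTCNNGAA, which read the same on both strands. Where matches share a block, the capitals run on over 3 or more blocks.
Hsp68: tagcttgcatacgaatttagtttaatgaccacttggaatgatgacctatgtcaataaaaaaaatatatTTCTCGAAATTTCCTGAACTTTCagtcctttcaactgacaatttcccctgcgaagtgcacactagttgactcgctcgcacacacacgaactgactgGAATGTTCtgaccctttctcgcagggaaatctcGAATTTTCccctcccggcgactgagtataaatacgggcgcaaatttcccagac
Hsp70Bc: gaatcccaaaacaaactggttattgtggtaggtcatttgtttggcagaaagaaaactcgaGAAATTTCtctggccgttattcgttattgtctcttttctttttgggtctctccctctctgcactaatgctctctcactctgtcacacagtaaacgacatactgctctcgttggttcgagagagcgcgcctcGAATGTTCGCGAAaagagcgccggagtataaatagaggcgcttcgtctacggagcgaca
Hsp26: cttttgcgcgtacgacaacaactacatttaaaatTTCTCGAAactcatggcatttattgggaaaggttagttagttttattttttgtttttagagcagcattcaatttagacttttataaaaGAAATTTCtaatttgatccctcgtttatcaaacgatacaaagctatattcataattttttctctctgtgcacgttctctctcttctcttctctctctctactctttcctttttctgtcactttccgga
Hsp23: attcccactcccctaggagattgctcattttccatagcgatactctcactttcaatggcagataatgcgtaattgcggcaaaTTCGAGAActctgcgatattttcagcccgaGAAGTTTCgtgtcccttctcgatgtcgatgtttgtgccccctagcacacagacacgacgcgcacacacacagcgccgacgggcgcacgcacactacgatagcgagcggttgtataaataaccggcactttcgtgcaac
CG5172: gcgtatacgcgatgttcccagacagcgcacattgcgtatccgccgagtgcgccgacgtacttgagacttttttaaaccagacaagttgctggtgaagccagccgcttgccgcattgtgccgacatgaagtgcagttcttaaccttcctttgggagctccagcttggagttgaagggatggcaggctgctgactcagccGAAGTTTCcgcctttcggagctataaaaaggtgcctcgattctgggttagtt
The windows lie on chromosome 3R for *Hsp68* (from 24057311 to 24057560, minus strand) and *Hsp70Bc* (from 12508826 to 12509075, plus strand), on 3L for *Hsp26* (from 9377428 to 9377677, minus strand) and *Hsp23* (from 9381632 to 9381881, plus strand), and on X for *CG5172* (from 17221192 to 17221441, plus strand). *Hsp68* held 6 matches and *Hsp70Bc* 3, with at least 3 blocks in a row in both. *Hsp26* and *Hsp23* held 2 matches each and *CG5172* held 1, none with 3 blocks in a row. At least 1 match was found in 51 of 266 promoters of genes called higher (19.2%), in 8 of 93 promoters of genes called lower (8.60%) and in 1497 of 11459 promoters of all tested genes (13.1%). At least 3 blocks in a row were found in 7 promoters of genes called higher (2.63%) and in 0 of those called lower. Among all tested genes 44 had them (0.384%). All 7 belonged to the 50 largest increases. They include *Hsp70Bc* and *Hsp70Bbb*, whose windows are identical, so the 7 are not all separate sequences. The windows of *Hsp27*, *stv* and *alphagamma-element:CR32865* held no match. A match describes letters and is not a site of binding. Only exact matches in the 250 bases before the annotated gene start were sought, so a missing match does not show that an element is absent.

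Among the small heat shock protein genes, 5 of 10 tested members rose and none fell, with a median log2 fold change of 0.70. *Hsp27*, a small chaperone found in nuclei, had 1191, 1120 and 1282 normalized CPM after 5 min of rest, against 162, 161 and 136 without rest (log2 fold change 2.97, standard error 0.10, adjusted p = 1.32e-19). It shares exons with *CR43483*. *Hsp26* had 3513, 2970 and 2893 normalized CPM after 5 min of rest, against 738, 712 and 650.0 without rest (log2 fold change 2.16, standard error 0.09, adjusted p = 1.01e-16). *Hsp23* had 808, 666 and 619 normalized CPM after 5 min of rest, against 156, 194 and 147 without rest. In all of these the groups were far apart. *Hsp67Bc* and *Hsp67Ba* rose by log2 fold changes of 2.25 and 1.07. The members that were not called had log2 fold changes from -0.43 for *CG4461* to 0.32 for *CG13133*.

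Of 23 tested constitutive chaperones and co-chaperones, 12 rose and none fell, with a median log2 fold change of 0.39. *stv*, a BAG-domain partner of Hsp70, had 1864, 1824 and 1936 normalized CPM after 5 min of rest, against 247, 231 and 240.2 without rest (log2 fold change 2.97, standard error 0.09, adjusted p = 2.57e-20). *DnaJ-1*, an Hsp40 co-chaperone, averaged 2339 ± 61.2 normalized CPM after 5 min of rest and 963 ± 106 without rest (SD, n = 3 each). *Hsp83*, the fly Hsp90, averaged 4905 ± 103 normalized CPM after 5 min of rest and 2272 ± 83.0 without rest (SD, n = 3 each), and it shares exons with *CG14966*. The log2 fold change was 1.11 for *Hop* and 0.74 for *Cdc37*, which work with Hsp90, and 0.96 for *Hsc70Cb*, an Hsp110. The housekeeping chaperones of the cytosol (*Hsc70-4*), the endoplasmic reticulum (*Hsc70-3* and *Gp93*) and the mitochondria (*Hsc70-5* and *Hsp60*) had log2 fold changes of 0.59, 0.56, 0.54, 0.43 and 0.39. *Hsf* itself had a log2 fold change of 0.17 (adjusted p = 0.44).

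**Figure D2:**
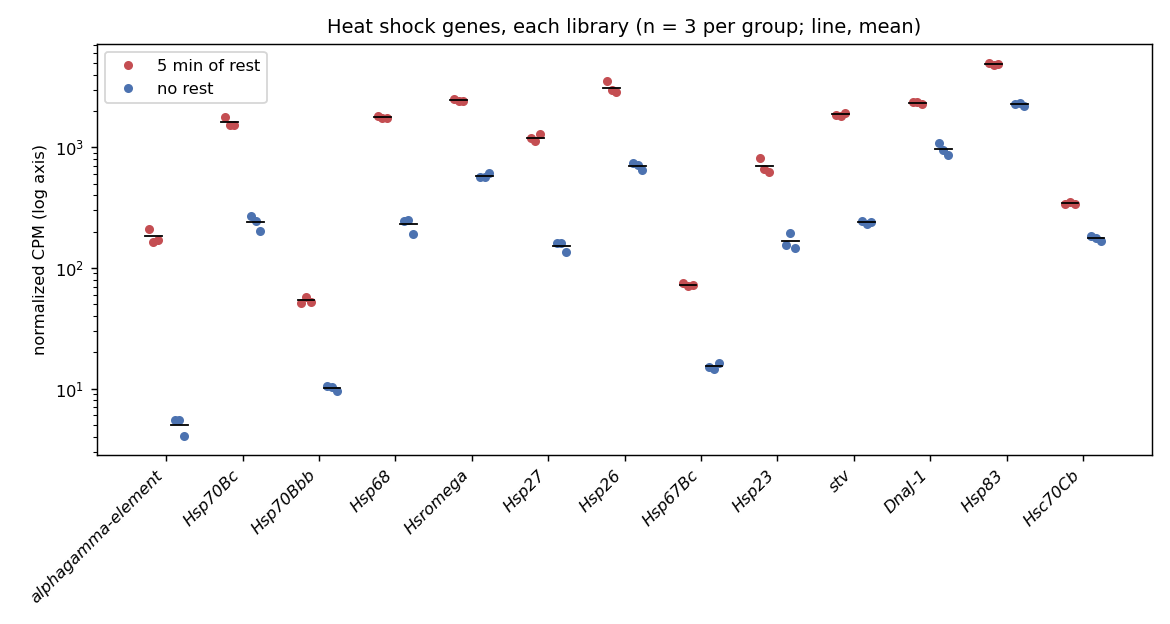
Normalized CPM, on a log axis, of 13 heat shock genes and chaperones in each library, with 5 min of rest left of no rest. For each gene the 3 libraries after 5 min of rest lie above the 3 libraries without rest, and the gap is widest for *alphagamma-element*.

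Some genes of other stress responses also rose. Of 55 tested genes of glutathione, thioredoxin and Nrf2 stress responses, a list added after the values had been seen, 11 rose and none fell, with a median log2 fold change of 0.11. *ref(2)P*, the fly p62 of selective autophagy, had 755, 795 and 804 normalized CPM after 5 min of rest, against 453, 413 and 428 without rest (log2 fold change 0.86). *Trxr-1*, the thioredoxin reductase, had 522, 477 and 521 normalized CPM after 5 min of rest, against 297, 275 and 271 without rest (log2 fold change 0.85). *GstE1*, a glutathione transferase, had 103, 103 and 100.1 normalized CPM after 5 min of rest, against 47.8, 54.6 and 54.0 without rest. None of these groups overlapped, but each gene shares exons with a neighbour. Of 34 tested antimicrobial peptide genes, *Dpt*, *Dro*, *AttA*, *AttC* and *DptB* rose and *CG15065* fell, with a median log2 fold change of 0.03 for the list. *Dpt*, which encodes diptericin, had 11.6, 12.4 and 9.68 normalized CPM after 5 min of rest, against 6.13, 4.17 and 2.51 without rest. In naive flies *Dpt*, *Dro* and *AttC* averaged 7.80, 12.9 and 16.1 normalized CPM, above their means of 4.27, 9.13 and 8.97 without rest. Their means after 5 min of rest were 11.2, 17.3 and 17.5. Against naive flies, *Dpt* after 5 min of rest had a log2 fold change of 0.52 (edgeR adjusted p = 0.16). With 1 library left out, 3 to 5 of the list were called higher and 1 to 3 lower, with 3 of each without replicate 1 of 5 min of rest and 3 higher without replicate 1 or 3 of no rest. The call of *AttC* was lost without replicate 2 of 5 min of rest or replicate 3 of no rest (edgeR adjusted p up to 0.06). *CG15065* had 21.8, 16.5 and 19.1 normalized CPM after 5 min of rest, against 31.2, 33.5 and 36.7 without rest.

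Cuticle protein genes, which build the exoskeleton, rose in 12 of 69 tested members and fell in none, with a median log2 fold change of 0.22. *Cpr66D* had 31.2, 35.8 and 33.1 normalized CPM after 5 min of rest, against 6.06, 7.67 and 4.50 without rest (log2 fold change 2.45, standard error 0.17, adjusted p = 1.63e-11). *Cpr97Ea* had 125, 123 and 118 normalized CPM after 5 min of rest, against 66.8, 59.4 and 61.9 without rest (log2 fold change 0.96, standard error 0.11, adjusted p = 3.47e-07). The summed level of the list was 3789 to 4305 CPM after 5 min of rest, against 2876 to 3218 CPM without rest, and the part of RNA from epidermal cells in this difference was not tested. In bulk samples, fewer cells of a type and less RNA per cell cannot be told apart. The neighbouring genes *CG5172* and *CG12998* on the X chromosome also rose. *CG5172* had 129.8, 117 and 86.1 normalized CPM after 5 min of rest, against 7.20, 8.86 and 1.94 without rest (log2 fold change 4.22, standard error 0.28, adjusted p = 3.95e-12). *CG12998* had 16.0, 14.1 and 9.36 normalized CPM after 5 min of rest, against 1.33, 2.50 and 1.05 without rest (log2 fold change 3.00). For both genes replicate 3 was the lowest library in each group, and the groups did not overlap.

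Genes known from the male reproductive tract had the deepest decreases. *Peb*, a gene of a protein of the ejaculatory bulb, had 0.283, 0.0569 and 0.255 normalized CPM after 5 min of rest, against 44.3, 40.3 and 51.1 without rest (log2 fold change -7.79, standard error 0.29, adjusted p = 3.94e-18). These were 10 counts in all after 5 min of rest and 2413 counts without rest. *PebII*, of the same organ, had 2 counts after 5 min of rest and 799 counts without rest, a ratio of no rest over 5 min of rest of 382 with a 95% exact counting interval from 105 to 3160. *Sfp87B*, a seminal fluid protein gene, had 3 counts after 5 min of rest and 664 counts without rest, a ratio of no rest over 5 min of rest of 212 (interval from 72.1 to 1029). The intervals cover counting error only. All 3 counts of *Sfp87B* were in replicate 2 of 5 min of rest, and the other libraries after rest had 0 counts. Of 46 tested members of the list, 8 fell, and the median log2 fold change of all 46 was 0.00. The 8 genes summed to 0.446 to 1.19 CPM after 5 min of rest, against 78.6 to 103 CPM without rest. The single member that rose, though not without replicate 2 of no rest or replicate 1 of 5 min of rest, was *Acp1*, which despite its symbol is an adult cuticle protein gene. *PebIII*, the most abundant member, averaged 7405 CPM after 5 min of rest and 6291 CPM without rest (adjusted p = 0.36).

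Digestive enzymes and gut mucins, a list added after the values had been seen, fell in 9 of 46 tested members and rose in none, and the median log2 fold change of the list was -0.03. *Jon65Aiv* and *Jon65Aiii*, serine proteases of the gut, had 0 counts after 5 min of rest, against 128 and 83 counts without rest. With 3 counts over the group as the floor, *Jon65Aiv* was at least 40.8-fold lower and *Jon65Aiii* at least 26.5-fold lower after 5 min of rest. The 9 genes summed to 0.396 to 1.20 CPM after 5 min of rest, against 15.4 to 18.8 CPM without rest. Of the 93 genes called lower, 11 had no count after 5 min of rest. With these at their bound, the lower quartile of the log2 fold change moved from -4.89 to -4.13. The median stayed at -1.76, but these genes are among the deeper decreases, so it could hardly move. The part of RNA from tissues outside the MB in these decreases was not tested.

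*Cyp4g1* and some odorant-binding protein genes also fell, at low levels in both groups. *Cyp4g1*, a cytochrome P450 that makes the hydrocarbons of the cuticle, had 2.37, 1.65 and 1.97 normalized CPM after 5 min of rest, against 8.86, 6.88 and 13.3 without rest (log2 fold change -2.27, standard error 0.25, adjusted p = 2.49e-07). *Obp59a* had 0.113, 0.455 and 2.42 normalized CPM after 5 min of rest, against 10.5, 6.26 and 6.59 without rest (log2 fold change -2.99). Without replicate 3 of 5 min of rest, its highest library in that group, the log2 fold change of *Obp59a* was -4.74, and without replicate 1 of that group it was -2.45. *Obp83a* and *Obp83b* had log2 fold changes of -1.96 and -2.50, and the 33 tested members of that list had a median of 0.02. The log2 fold change of *Obp83a* was -1.36 without replicate 1 of no rest. The call of *Obp83a* was lost without replicate 1 of no rest or replicate 2 or 3 of 5 min of rest (edgeR adjusted p up to 0.267), and that of *Obp83b* without any 1 library other than replicate 3 of no rest (up to 0.149).

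Other named genes belong to neurons or to metabolism. *Syx1A*, the syntaxin of vesicle fusion, had 119, 133 and 146 normalized CPM after 5 min of rest, against 95.0, 74.2 and 102 without rest (log2 fold change 0.55). In naive flies it had 131, 167 and 108 normalized CPM. Of 28 tested genes of synaptic vesicles and active zones, only *Syx1A* was called, and the median log2 fold change of the list was -0.08. *CanB*, a regulatory subunit of calcineurin, had 144, 134 and 134 normalized CPM after 5 min of rest, against 171, 166 and 176 without rest (log2 fold change -0.32). It was the only called gene of 10 tested genes of calmodulin, CaMKII and calcineurin, with a median log2 fold change of -0.01. The edgeR adjusted p of *Syx1A* was 0.155 without replicate 2 of no rest, 0.0513 without replicate 2 of 5 min of rest and 0.107 without replicate 3 of 5 min of rest. That of *CanB* was 0.0602 to 0.136 without any 1 library other than replicate 1 of 5 min of rest, without which it was 0.0352. *bmm*, the gene of the Brummer triglyceride lipase, had 126, 130.1 and 129.7 normalized CPM after 5 min of rest, against 69.6, 72.5 and 80.6 without rest (log2 fold change 0.79). *Cyp4e3*, a cytochrome P450 gene, had 207, 194 and 201 normalized CPM after 5 min of rest, against 99.3, 96.6 and 102 without rest (log2 fold change 1.01). Among the decreases, *CG34324* had at most 1.91 normalized CPM after 5 min of rest and at least 9.37 without rest (log2 fold change -3.49, standard error 0.46, adjusted p = 5.42e-06, and a log2 fold change of -4.34 without replicate 3 and -2.92 without replicate 2 of 5 min of rest), and *CG13026* had 9.44, 9.73 and 6.88 normalized CPM after 5 min of rest, against 21.5, 25.0 and 19.3 without rest (log2 fold change -1.33).

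Among 19 genes of MB neuron identity, *Eip93F* rose and *prt* and *sNPF* fell, with a median log2 fold change of -0.06. *prt*, a vesicular transporter of MB neurons, had 88.7, 91.1 and 78.8 normalized CPM after 5 min of rest, against 129, 122 and 136 without rest (log2 fold change -0.58, standard error 0.11, adjusted p = 0.001). *sNPF*, the short neuropeptide F gene, had 346, 353 and 340.4 normalized CPM after 5 min of rest, against 444, 454 and 484 without rest (log2 fold change -0.41). *Eip93F*, an ecdysone-induced transcription factor gene, had 2318, 2175 and 2324 normalized CPM after 5 min of rest, against 1867, 1379 and 1903 without rest (log2 fold change 0.40). The call of *sNPF* was lost without any 1 library other than replicate 1 of no rest (edgeR adjusted p up to 0.0933), and that of *Eip93F* without replicate 2 of no rest or any 1 library after 5 min of rest (up to 0.336), as well as with library size alone or upper quartile scaling. The MB markers *ey*, *dac*, *Mef2* and *mamo* were detected in both groups, with mean levels of 311, 77.0, 167 and 1045 CPM after 5 min of rest, and none was called.

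RNA of photoreceptor genes was abundant in these libraries. The 36 tested genes of that list, which also holds the corneal lens genes *retinin* and *Crys*, summed to 40862 to 43279 CPM after 5 min of rest. They summed to 46603 to 49490 CPM without rest, and their median log2 fold change was -0.11. The 7 opsin genes among them summed to 14093 to 14262 CPM after 5 min of rest, against 16095 to 18157 CPM without rest. The 19 tested fat body genes summed to 17680 to 17984 CPM after 5 min of rest, and the 19 genes of MB neuron identity to 7190 to 7699 CPM. *inaD*, the scaffold of the phototransduction complex, had 476, 511 and 549 normalized CPM after 5 min of rest, against 769, 726 and 659 without rest (log2 fold change -0.49), and it shares exons with *RpL23*. *Rh3*, an ultraviolet opsin, had 529.8, 525 and 501 normalized CPM after 5 min of rest, against 647, 625 and 716 without rest (log2 fold change -0.35). The adjusted p of *Rh3* was 0.0692 or less in edgeR when a library was left out, and its call was lost without replicate 3 of either group. *ninaD*, a scavenger receptor for carotenoid uptake, had 18.6, 21.2 and 21.1 normalized CPM after 5 min of rest, against 7.20, 10.5 and 7.69 without rest (log2 fold change 1.26). Of 27 muscle structure genes, *Act57B*, *Act88F*, *Mf* and *Unc-89* fell, and the median log2 fold change was -0.36. These calls depended on the processing, with 0 to 12 muscle genes and 0 to 7 photoreceptor genes called lower over the alternatives. The part of photoreceptor, fat body and muscle RNA in the other results was not tested.

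None of the 8 genes examined by the study was called by edgeR, where 2 had an unadjusted p below 0.05 and DESeq2 called 1 (*grh*, adjusted p = 0.0291). *kay*, the fly Fos gene, had 103, 117 and 123 normalized CPM after 5 min of rest, against 115, 109 and 112 without rest (log2 fold change 0.03, adjusted p = 0.95), and the groups overlapped. *grh*, a transcription factor gene, had 235, 231 and 263 normalized CPM after 5 min of rest, against 184, 181 and 221 without rest (adjusted p = 0.069). *h*, which encodes the repressor hairy, had 188, 173 and 183 normalized CPM after 5 min of rest, against 157, 145 and 149.7 without rest (adjusted p = 0.13). The libraries of *grh* and *h* did not overlap, but neither gene passed the test. *sr*, the fly Egr gene, and *Myo31DF*, an unconventional myosin gene, had log2 fold changes of -0.16 and -0.02. *nej*, which encodes the acetyltransferase CBP, *CoRest* and the deacetylase gene *Rpd3* had log2 fold changes of 0.11, -0.02 and -0.03. Of 15 activity-regulated transcription factors and 20 genes of the JNK pathway, 0 were called in either direction by edgeR. Of all tested genes, 2.34% were called higher and 0.797% lower. At those shares lists of 8, 15 and 20 genes would hold few calls, so the lack of calls does not set these lists apart. An unadjusted p below 0.05 was found for 4 of the transcription factors and 6 of the JNK genes, and DESeq2 called 0 and 0. Over all 11670 tested genes, 1544 had an unadjusted p below 0.05. Of 15 tested circadian clock genes, only *Clk* was called higher and only *vri* lower, and the median log2 fold change of the list was 0.04. *Clk*, an activator of the clock, had 247, 285 and 283 normalized CPM after 5 min of rest, against 203, 194 and 216 without rest, and *vri*, a repressor of *Clk*, had 74.5, 75.1 and 76.2 normalized CPM after 5 min of rest, against 102, 115 and 97.2 without rest. The call of *Clk* was lost without replicate 2 of no rest or replicate 2 or 3 of 5 min of rest (edgeR adjusted p up to 0.0773).

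**Figure D3:**
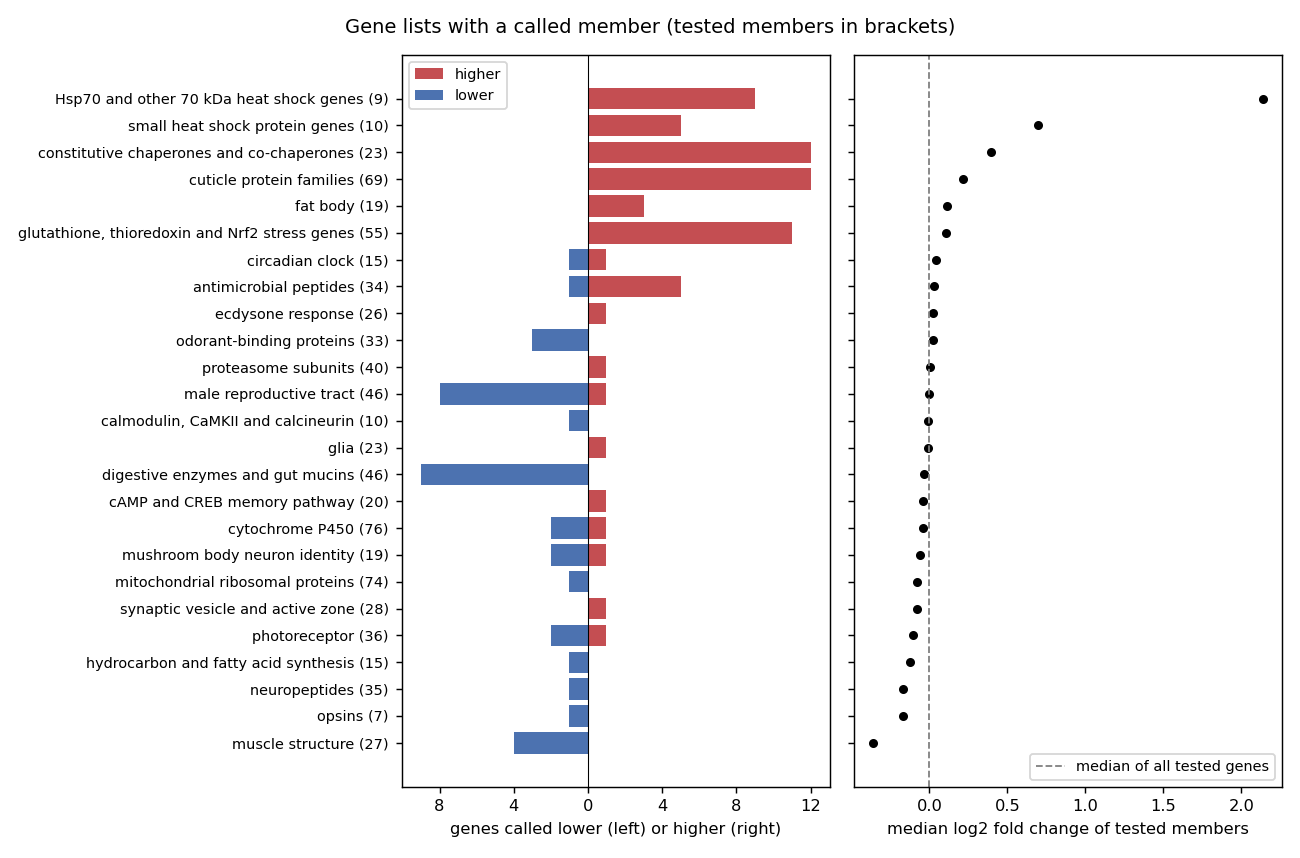
Left, the number of genes called lower (blue) and higher (red) in each gene list with a called member, with the number of tested members in brackets. Right, the median log2 fold change of the tested members, with that of all tested genes as a line. The lists of heat shock genes and chaperones have the largest positive medians, and muscle structure the lowest.

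The levels in the other groups place these genes in the time course. *Hsp26* averaged 105 normalized CPM in naive flies, 700.0 without rest, 3125 after 5 min, 2736 after 10 min and 2150 after 15 min of rest. *Hsromega* averaged 568 normalized CPM in naive flies, 583 without rest, 2450 after 5 min, 2189 after 10 min and 1603 after 15 min. The log2 fold change of no rest over naive flies was 2.74 for *Hsp26*, 2.94 for *Hsp70Bc*, 2.25 for *Hsp27* and 2.29 for *DnaJ-1*, against 0.61 for *stv*, 0.04 for *Hsromega* and -0.05 for *alphagamma-element:CR32865*. These values share the libraries without rest with the comparison described here. *CG5172* averaged 22.0 normalized CPM in naive flies, 6.0 without rest, 111 after 5 min, 136 after 10 min and 2.75 after 15 min. *Peb* averaged 114 normalized CPM in naive flies, 45.2 without rest, 0.198 after 5 min, 0.237 after 10 min and 20.7 after 15 min, so the libraries after 5 and 10 min of rest were those in which it was nearly undetected.

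**Figure D4:**
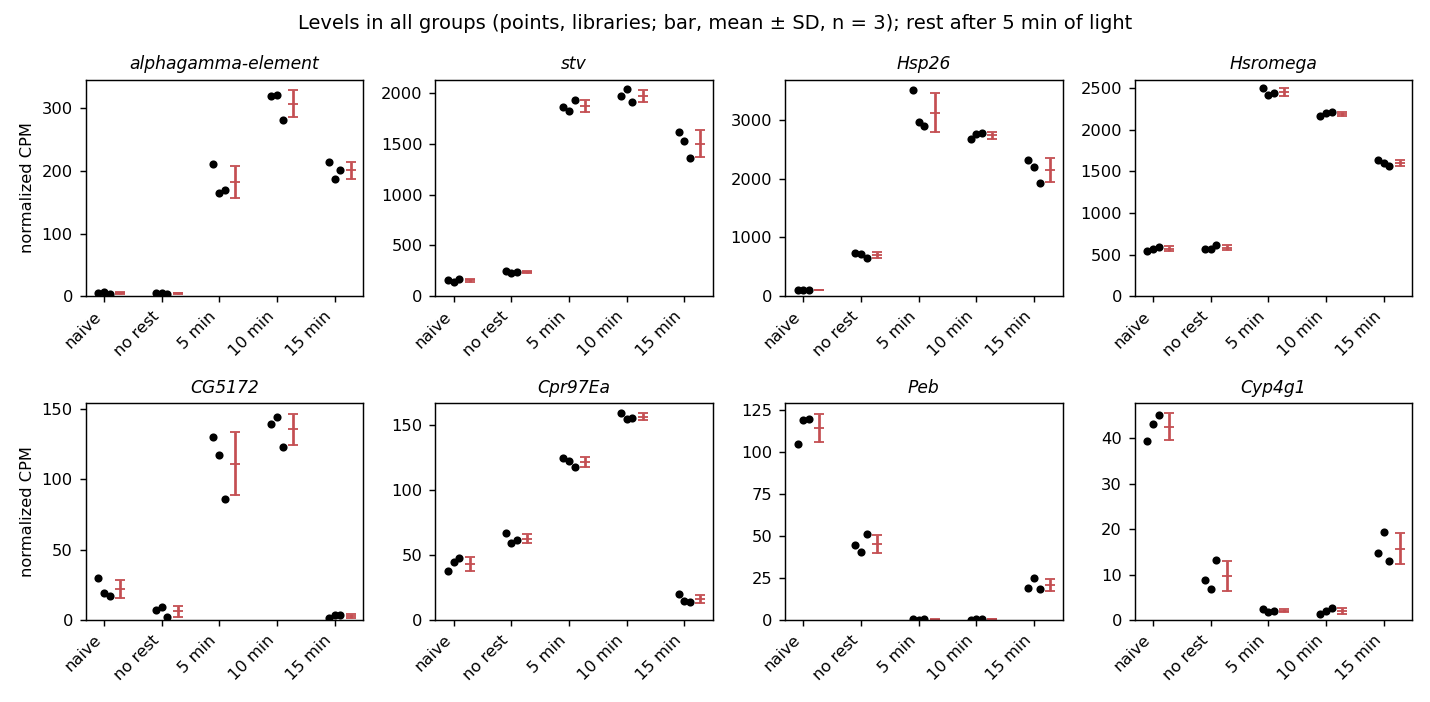
Normalized CPM of 8 genes in naive flies, without rest and after 5, 10 and 15 min of rest. Points are libraries and bars the mean ± SD of 3 libraries. *Hsp26* and *stv* are still high after 15 min, *CG5172* and *Cpr97Ea* are low after 15 min, and *Peb* and *Cyp4g1* are lowest after 5 and 10 min.

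Comparisons that share no library with the one described here were set beside it. Between 15 and 10 min of rest, 158 of the 273 genes called higher were lower (57.9%) and 4 were higher (1.47%), where 10.2% of all tested genes were lower and 6.71% higher. Of the 93 genes called lower, 43 were higher after 15 min than after 10 min (46.2%) and 7 were lower. *Pxd*, a peroxidase gene, averaged 0.543 normalized CPM after 15 min of rest and 30.1 after 10 min. *kkv*, a chitin synthase gene, averaged 13.5 normalized CPM after 15 min of rest and 172 after 10 min. *Pxd* and *kkv* were chosen after their values were seen. Such decreases differed widely in size, and the median log2 fold change of the 273 genes was -0.40. Among cuticle protein genes it was -3.30 for *Cpr97Ea* and -4.08 for *Acp1*, but -0.55 for *Cpr66D*. Among heat shock genes it was -0.35 for *Hsp26*, -0.39 for *stv* and -0.64 for *Hsp70Ab*. *Cpr97Ea* averaged 43.1 normalized CPM in naive flies and 16.0 at 15 min, against 105 and 2150 for *Hsp26*. These examples too were picked with their values known. Between 10 min of rest and naive flies, 240 of the genes called higher were higher (87.9%), where 14.5% of all tested genes were, and 68 of the genes called lower were lower (73.1%), where 13.9% of all tested genes were. These counts moved with the number of genes called. Without replicate 2 of no rest, 175 genes were called higher, of which 101 were then lower between 15 and 10 min and 158 were higher at 10 min than in naive flies. Without replicate 2 of 5 min of rest, 45 genes were called lower, of which 27 were then higher and 37 were lower at 10 min than in naive flies, and without replicate 3 of 5 min of rest 53 were called lower, of which 43 were lower at 10 min.

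The called genes were also set beside the binding sites deposited for illuminated flies. A gene was counted when a site lay over its body or within 1000 bp upstream, among 11459 tested genes with a position. CBP sites were found at 173 of 266 genes called higher (65.0%), 21 of 93 genes called lower (22.6%) and 4960 of all tested genes (43.3%). The genes were also split into 3 equal classes of mean expression, and 51 of the 93 genes called lower were in the low class. In the low, middle and high classes, CBP sites were found at 26.9%, 45.8% and 81.5% of the genes called higher. The shares were 3.92%, 35.3% and 52.0% of those called lower and 21.6%, 39.0% and 69.2% of all tested genes. The difference between genes called higher and all tested genes was thus smaller within each class than over all genes. Rpd3 sites were found at 35.0% of the genes called higher, 9.68% of those called lower and 34.2% of all tested genes. CoRest-C sites were found at 19.2%, 5.38% and 13.2% of the same groups. Within the low, middle and high classes, Rpd3 sites were found at 11.5% of 26, 19.3% of 83 and 47.1% of 157 genes called higher. The shares of all tested genes were 14.9%, 37.6% and 50.1%. The 95% exact interval of the genes called higher excluded the share of all tested genes only in the middle class (11.4% to 29.4%). CoRest-C sites were found at 11.5%, 8.43% and 26.1% of the genes called higher in these classes. The shares of all tested genes were 5.76%, 11.3% and 22.6%, and the middle class had the opposite order to the others. In each class the interval of the genes called higher included the share of all tested genes. For the 51, 17 and 25 genes called lower in these classes, the shares with Rpd3 sites were 5.88%, 17.6% and 12.0%. With CoRest-C sites they were 1.96%, 0% and 16.0%. No test was made of these shares. At *stv*, a CBP site on chromosome 3L from 13476474 to 13478666 had a fold enrichment of 47.7 as the authors' caller gave it. CBP sites with a fold enrichment of 29.7 and 20.5 were listed at *alphagamma-element:CR32865* and *Hsp26*, and sites of all 3 proteins at *Hsromega*, *Hsp83* and *DnaJ-1*.

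**Figure D5:**
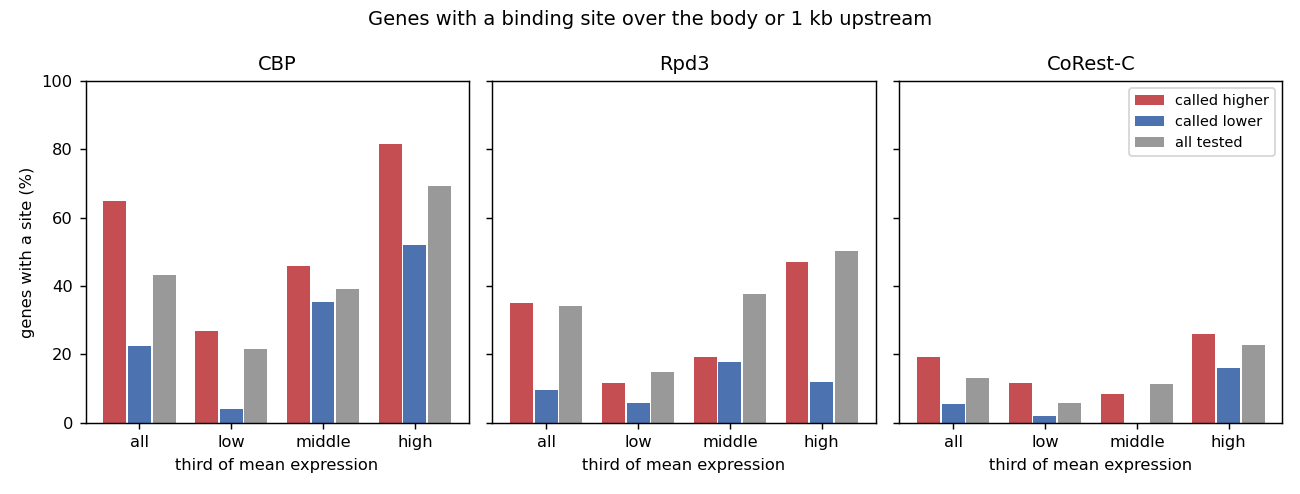
Percent of genes with a CBP, Rpd3 or CoRest-C site, for genes called higher, genes called lower and all tested genes, over all genes and in each of 3 classes of mean expression. For CBP the share is 65.0% of the genes called higher, 22.6% of those called lower and 43.3% of all tested genes. In the low, middle and high classes it is 26.9%, 45.8% and 81.5% of the genes called higher, against 21.6%, 39.0% and 69.2% of all tested genes.

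Genes called higher were often neighbours. Of 266 with a position, 79 had another gene called higher as the next tested gene on either side (29.7%), against 433 of 11193 genes not called higher (3.87%). The longest runs held 5 genes, *Hsp26*, *Hsp67Ba*, *CR43481*, *Hsp23* and *Hsp27* on chromosome 3L (from 9376418 to 9385694) and *Hsp70Ba*, *alphagamma-element:CR32865*, *Hsp70Bbb*, *Hsp70Bb* and *Hsp70Bc* on 3R (from 12465453 to 12511461). Of 93 genes called lower, 21 had a neighbour called lower (22.6%), against 161 of 11366 genes not called lower (1.42%). Neighbours can share reads, and 36.8% of the genes called higher, 20.4% of those called lower and 38.5% of all tested genes had exons that overlap another gene.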

How the data were processed

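The 15 nuclear RNA libraries, 3 in each of 5 groups, were grouped by their labels. The authors trimmed adaptors, aligned reads to dm6 using STAR, discarded poorly mapped and non-primary reads, and deposited raw counts on exons per gene from HTSeq-count. Each deposited binding site, a MACS peak shared by illuminated replicates, comes with a p-value as −log10 and a fold enrichment. Repeated entries were counted once. The authors' table of their own DESeq2 comparison (fold changes and p-values) was not used.

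TMM scaling, the default filter by group and the quasi-likelihood fit of edgeR 4.0.16 (limma 3.58.1, R 4.3.3) were applied to all 15 libraries without covariates, and p-values were adjusted by Benjamini-Hochberg over the 11670 genes kept, of 15634 with a count. Normalized CPM use the TMM factors. Replicates varied by about 13.4%. In simulated data for this comparison with 11670 genes, 82 of the 100 with a true log2 fold change of 1 and 95 of the 100 with 2 were found, beside 12 false calls. Gene positions came from the BDGP6 annotation and promoters from RefSeq (pandas 2.3.3, scipy 1.17.1, matplotlib 3.10.9).

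The comparison, its 33 gene lists and all rules were chosen with earlier results of these data known, and 4 more lists after the values were seen. Named were the 12 highest and 12 lowest log2 fold changes among called genes whose groups did not overlap and whose mean was at least 1 log2 CPM, the 5 smallest p-values in each direction, every gene examined by the study, and in each other list up to 4 called members with the smallest p, or the most abundant member where none was called. Other list members and marker genes were named after their values were seen. Alternatives were other scalings and filters, DESeq2 1.42.0, a fit of the 6 libraries, a replicate block, other thresholds, leaving out each library, and other rules for binding sites.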

Additional observations from a re-analysis of the deposited data

How the results depend on the processing

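The number of genes called higher was 165 with a fold of at least 1.5, 175 to 250 when each library was left out (175 without replicate 2 of no rest), and 186 to 340 under the other alternatives. The number called lower was 143 with library size alone, 151 without a filter, 45 with at least 10 counts in each of the 6 libraries, 43 at an adjusted p under 0.01 and 45 to 77 when each library was left out. It was 45 and 53 without replicates 2 and 3 of 5 min of rest, and 56 without replicate 2 of no rest. The filter of 10 counts left 42 of the 93 genes called lower untested. Higher genes were 74.6% of the calls, 61.5% with library size alone and 86.5% with that filter. Of the genes called higher, 94 at an adjusted p under 0.01 and 66 with a fold of at least 1.5 were lower at 15 than at 10 min of rest, against 158, and with that fold 135 were higher at 10 min than in naive flies, against 240. Of the genes called lower, 66 with library size alone, 12 with at least 10 counts and 24 at an adjusted p under 0.01 were higher at 15 than at 10 min, against 43, and 103, 26 and 35 were lower at 10 min than in naive flies, against 68. No called gene changed sign where it was tested under the scalings, filters, tools, block or left-out libraries tried. The groups of these genes did not overlap, so a change of sign was hardly possible. The filter of 10 counts also left 5 of the genes called higher untested, and the fit of the 6 libraries 8 of those called lower. The replicate numbers did not pair the libraries, since the deviations of same-numbered libraries correlated by 0.00, 0.01 and 0.01, and with the replicate block 268 genes were called higher and 87 lower. Of the named genes, *Act57B*, *Mf* and *Cyp18a1* lost their call without any 1 of the 6 libraries. Depth limits the genes called lower, of which 27 had at most 3 counts in each library after 5 min of rest.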
